A study of Mus musculus with 4 samples.

Results

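Red pulp macrophages are the resident phagocytes of the spleen that engulf ageing red blood cells, and 9 genes that mark them or that they use were followed: Vcam1, Slc40a1, Cd163, C1qa, C1qb, C1qc, Fcna, Cd5l and Spic. They are 9 of the 17039 genes in the deposited table, found by symbol. The 9 names were chosen by their measured difference between the groups below as well as by what is known of them, so that difference is given as a description and carries no test.

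RNA was sequenced from splenic T cells of C57BL/6 mice. AAV-IL-27 mice received, by injection into muscle, a recombinant adeno-associated virus that expresses interleukin-27, a cytokine that acts on T cells and on myeloid cells. AAV-ctrl mice received the control virus. Each group had 2 libraries, labelled replicates 1 and 3, from 2 mice, and all spleens were taken about 1 month later and passed through magnetic sorting for T cells. The labels give no age, do not tell if the sort was positive or negative, and name no cell type in which the virus was active. Whether a library is 1 mouse is implied by the mouse count only. With nothing said of separate handling, p-values measure the spread between these libraries.

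The libraries carried 15742523 to 16182453 counts. The series is titled CD8+, and the T cell markers were present: Cd8a, a chain of the CD8 co-receptor, stood at 408 and 349 FPKM (fragments scaled to transcript length and library size) in AAV-IL-27 against 321 and 335 FPKM in AAV-ctrl. Cd4, the co-receptor of helper T cells, stood at 8.21 and 10.1 FPKM against 9.74 and 9.81 FPKM. Other cells were present too. Cd79a, part of the B cell receptor, stood at 251 and 371 FPKM in AAV-IL-27 against 630 and 531 FPKM in AAV-ctrl, which is a level of the order of Cd8a. Il27, which encodes one subunit of the cytokine, had 10 or fewer counts in every library of these spleen cells, with 4.02 and 9.52 in AAV-IL-27 against 5.05 and 3.09 in AAV-ctrl.

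Red pulp macrophages take up worn red cells, break haem down and return its iron to the blood through ferroportin, the product of Slc40a1. Their development depends on the transcription factor SPIC, which haem induces. They also display VCAM1, and tissue macrophages are a main source of the complement protein C1q. None of the 9 is a marker of T cells, and VCAM1 and ferroportin are made by other cells of the body as well.

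The promoters of 6 of the 9 genes were in a RefSeq table of build GRCm38.p6, those of Fcna, Cd5l, C1qb, C1qc, Cd163 and Spic. Vcam1, C1qa and Slc40a1 were not matched. Each sequence runs from 250 bases before to 50 bases after the start of transcription. It was read on both strands for AGGAAG, a core of the sites bound by the macrophage factor PU.1 and its relatives, which include SPIC. AGGAAG, or its complement, occurred in 5 of the 6 promoters (all but Cd163), and in 35.4% of the 32841 promoters in the table. The 4 printed below are the C1qb and C1qc promoters, as those of neighbouring genes of one complex, the Spic promoter, as that of the factor itself, and the Fcna promoter, which held the most matches. Capitals mark AGGAAG on the printed strand or CTTCCT where the match lies on the other strand, and all 4 genes lie on the minus strand. In Fcna 2 of the 5 matches abut. The C1qb window is chr4:136886151-136886450, the C1qc window chr4:136892865-136893164, the Spic window chr10:88682974-88683273 and the Fcna window chr2:25627925-25628224, the last of them inside the annotated span of the gene.
C1qb: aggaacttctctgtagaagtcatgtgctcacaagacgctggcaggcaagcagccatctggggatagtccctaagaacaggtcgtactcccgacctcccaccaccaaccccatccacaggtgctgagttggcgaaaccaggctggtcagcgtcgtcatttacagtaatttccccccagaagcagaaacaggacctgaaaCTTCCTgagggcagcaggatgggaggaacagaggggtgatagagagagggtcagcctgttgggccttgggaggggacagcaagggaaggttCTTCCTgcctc
C1qc: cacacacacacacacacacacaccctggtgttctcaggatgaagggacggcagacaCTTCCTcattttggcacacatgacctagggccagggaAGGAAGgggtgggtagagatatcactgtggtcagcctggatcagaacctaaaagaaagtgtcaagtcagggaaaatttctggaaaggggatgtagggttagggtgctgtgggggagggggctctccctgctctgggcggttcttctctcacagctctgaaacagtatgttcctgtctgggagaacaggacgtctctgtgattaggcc
Spic: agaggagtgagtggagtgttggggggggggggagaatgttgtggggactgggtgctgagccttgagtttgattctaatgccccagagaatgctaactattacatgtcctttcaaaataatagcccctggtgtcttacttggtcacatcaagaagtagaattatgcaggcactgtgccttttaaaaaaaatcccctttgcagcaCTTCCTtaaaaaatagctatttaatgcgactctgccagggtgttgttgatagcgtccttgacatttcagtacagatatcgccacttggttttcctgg
Fcna: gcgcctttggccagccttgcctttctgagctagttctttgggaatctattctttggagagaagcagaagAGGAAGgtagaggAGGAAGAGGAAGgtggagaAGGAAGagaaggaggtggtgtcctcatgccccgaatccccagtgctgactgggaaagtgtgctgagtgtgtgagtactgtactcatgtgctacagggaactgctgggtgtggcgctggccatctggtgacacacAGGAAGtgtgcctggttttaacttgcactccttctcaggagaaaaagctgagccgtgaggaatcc
Measured back from the start of transcription, the C1qb and Spic matches nearest to it on the upstream side began 52 and 47 bases before it. The C1qc matches began 194 and 157 bases before it, and the Fcna matches between 181 and 15 bases before it. Of the other 4 motifs searched, GCTGANTCA (bound by Maf factors with partners), TTCNNNGAA (bound by STAT factors), TTCNNTTTC (an interferon response element) and GGGNTTTCC (bound by NF-kB), none was in the 6 promoters. They occurred in 1.19%, 8.3%, 8.56% and 1.68% of all promoters. A match is only a stretch of letters, and a missing match says only that these letters are not in this window.

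All 9 genes were lower in both AAV-IL-27 libraries than in both AAV-ctrl libraries. Summed over the 9, the counts were 816 and 889 in AAV-IL-27 against 3971 and 2365 in AAV-ctrl. In CPM (counts scaled to the library total) the sum was 50.7 (95% exact interval 47.2 to 54.3) and 54.9 (51.4 to 58.7) in AAV-IL-27, against 251 (244 to 259) and 150 (144 to 156) in AAV-ctrl. The intervals cover counting error only. Across all 12887 genes tested, 35.8% were likewise lower in AAV-IL-27 with no overlap between the groups. With edgeR's quasi-likelihood test and Benjamini-Hochberg adjustment over all genes, 39% of genes passed an adjusted p of 0.05, 21.3% higher and 17.7% lower in AAV-IL-27. Of the 9, 7 passed it on the lower side. Slc40a1 and Spic did not, though both passed with DESeq2, so the count depends on the tool. Nothing is read from that count, since the 9 were chosen on this contrast, and it came to 4 without AAV-IL-27 replicate 1. Here and below, a group with a library left out has 1 library, which the fit assumes to vary like those of the other group. The spread within the reduced group is then not in the test, so a gene that passes the threshold in this way alone is not counted as changed. The median log2 fold change of the 9 was -1.53, beside -0.01 over all genes tested. In bulk RNA, fewer cells of a type and less RNA per cell cannot be told apart.

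**Figure D1:**
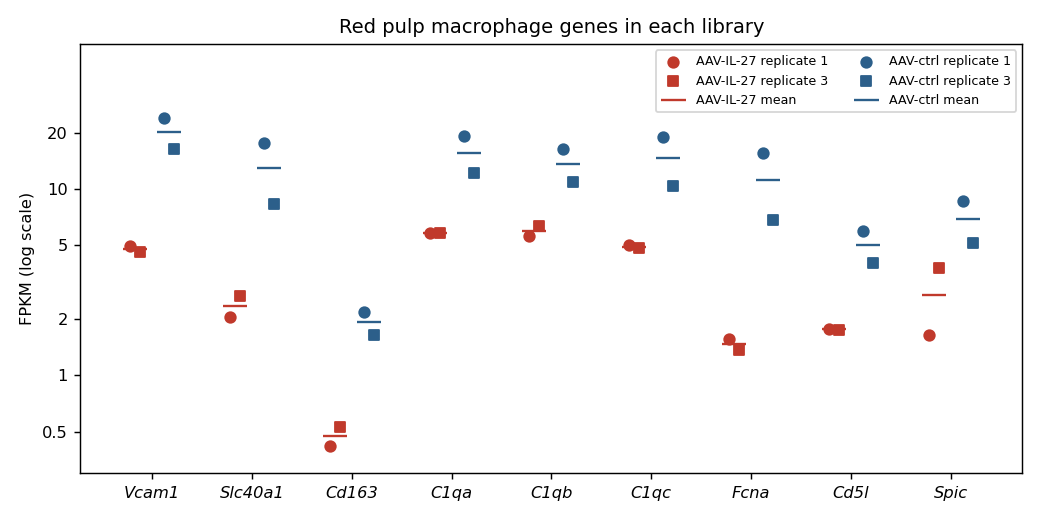
FPKM of the 9 genes in each of the 4 libraries, on a log axis, with AAV-IL-27 left of AAV-ctrl for each gene; circles are replicate 1, squares are replicate 3 and bars are the group means of 2 libraries. Every AAV-IL-27 point lies under both AAV-ctrl points of its gene, and AAV-ctrl replicate 1 is the highest of the 4 each time.

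Vcam1 (NCBI Gene 22329, chr3:116110020-116129688) encodes the adhesion molecule that binds the integrins VLA-4 and LPAM-1 on leukocytes, and in the spleen it is displayed by red pulp macrophages and stroma. It stood at 4.92 and 4.59 FPKM in AAV-IL-27 against 23.9 and 16.4 FPKM in AAV-ctrl. The AAV-IL-27 libraries were close together and far under both AAV-ctrl libraries. Counts were 271 and 254 against 1294 and 884, the largest of the 9 genes in each library. The log2 fold change was -2.04 ± 0.24 (SE), which is 4.10-fold lower in AAV-IL-27.

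Slc40a1 (Gene 53945, chr1:45908070-45926532) encodes ferroportin, the iron exporter through which recycled iron leaves the macrophage. Its level was 2.06 and 2.67 FPKM in AAV-IL-27 against 17.6 and 8.36 FPKM in AAV-ctrl. Both AAV-IL-27 libraries lay under the lower AAV-ctrl library, but the AAV-ctrl libraries themselves were apart. The mean was 2.37 ± 0.43 FPKM against 12.96 ± 6.51 FPKM (SD, n = 2 each), and the log2 fold change -2.40 ± 0.59 (SE), 5.27-fold lower. Cd163 (Gene 93671, chr6:124304636-124330529) encodes a scavenger receptor for haemoglobin. It had the lowest level per length of the 9, 0.42 and 0.53 FPKM in AAV-IL-27 against 2.2 and 1.65 FPKM in AAV-ctrl. The groups did not overlap. Its counts were 31 and 38 against 156 and 112, the only ones of the 9 that were not whole numbers as deposited, and its log2 fold change was -1.94 ± 0.24.

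C1qa, C1qb and C1qc encode the 3 chains of C1q, the complement subunit that recognises antibody-coated and dying cells. The genes lie side by side on chromosome 4 in the order C1qb (Gene 12260, chr4:136880126-136886200), C1qc (Gene 12262, chr4:136889801-136892936) and C1qa (Gene 12259, chr4:136895916-136898844), within 18719 bases, with gaps of 3600 and 2979 bases. C1qa stood at 5.83 and 5.81 FPKM in AAV-IL-27 against 19.2 and 12.2 FPKM in AAV-ctrl. For C1qb the levels were 5.59 and 6.34 FPKM against 16.4 and 10.9 FPKM. C1qc stood at 5 and 4.83 FPKM against 18.97 and 10.4 FPKM. The chains thus lay close to one another in each library, and each was highest in AAV-ctrl replicate 1. Their log2 fold changes were -1.38 ± 0.22 for C1qa, -1.14 ± 0.21 for C1qb and -1.53 ± 0.32 for C1qc, which is 2.60-, 2.21- and 2.88-fold lower in AAV-IL-27. The difference for C1qb was the smallest of the 9 genes.

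The 3 chains are used in equal parts in the protein, and their shares of the summed C1q FPKM were close to equal in every library. The sum was 16.4 and 16.98 FPKM in AAV-IL-27 against 54.5 and 33.5 FPKM in AAV-ctrl. C1qa made up 35.5% and 34.2% of it in AAV-IL-27 and 35.1% and 36.5% in AAV-ctrl. The C1qb share was 34.04% and 37.3% in AAV-IL-27 and 30.04% and 32.5% in AAV-ctrl, and the C1qc share 30.5% and 28.5% against 34.8% and 31.0%. The C1qa shares overlapped between the groups, whereas the C1qb shares were higher and the C1qc shares lower in both AAV-IL-27 libraries, on 277 and 288 C1q counts against 902 and 553.

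Fcna (Gene 14133, chr2:25624665-25635440) encodes ficolin-A, which recognises sugars on microbes and starts the lectin pathway of complement. It showed the largest fold change of the 9: 1.57 and 1.37 FPKM in AAV-IL-27 against 15.6 and 6.83 FPKM in AAV-ctrl. Counts were 33 and 29 against 321 and 140. The AAV-IL-27 libraries were alike, and the AAV-ctrl libraries were the farthest apart of any of the 9 genes. The log2 fold change was -2.87 ± 0.57, 7.32-fold lower. Cd5l (Gene 11801, chr3:87357881-87371074) encodes AIM, a secreted scavenger protein of tissue macrophages. It stood at 1.77 and 1.76 FPKM in AAV-IL-27 against 5.94 and 4.03 FPKM in AAV-ctrl. The 58 counts in each AAV-IL-27 library compare with 191 and 129, and the log2 fold change was -1.45 ± 0.22. The groups were separate for both genes.

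Spic (Gene 20728, chr10:88675269-88683023) encodes the transcription factor on which red pulp macrophages depend. Its level was 1.64 and 3.75 FPKM in AAV-IL-27 against 8.60 and 5.13 FPKM in AAV-ctrl. Of the 9 genes it was the one whose AAV-IL-27 libraries were far apart, with 33 counts in replicate 1 and 76 in replicate 3. The 2 libraries nearest to each other across the groups, replicate 3 of each, had 76 and 101 counts. The log2 fold change was -1.30 ± 0.46, 2.46-fold lower in AAV-IL-27.

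Within groups the 9 genes also differed between the libraries. The choice of genes by group did not set this difference directly, but it used the same libraries. Genes chosen as high in AAV-ctrl can include ones raised in 1 of its libraries, and the genes of like level below were not chosen so. Genes of 1 cell type can also vary together, so the 9 are not separate observations. In AAV-ctrl all 9 were higher in replicate 1 than in replicate 3, with a median log2 ratio of 0.64. Over all genes tested 50.7% were higher in AAV-ctrl replicate 1, and the middle 90% of the 5011 genes in the same range of mean level (log2 CPM 2.43 to 5.41) lay between -0.26 and 0.28. The 9 ratios lay between 0.46 for Cd163 and 1.18 for Fcna, all above that range. The Fcna counts gave a ratio of 2.28 (95% exact interval 1.87 to 2.81), those of Slc40a1 2.09 (1.87 to 2.35), and those of Cd163 1.39 (1.08 to 1.79). No interval of the 9 reached 1 in AAV-ctrl, on counting error alone.

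In AAV-IL-27 the same comparison gave a median log2 ratio of 0.01, with 5 of the 9 higher in replicate 1. The middle 90% of genes of like level lay between -0.36 and 0.33, and 8 of the 9 lay inside it. Spic was outside, at -1.15, with a count ratio of 0.436 (0.281 to 0.665). Slc40a1 was just inside, at -0.357 beside an edge of -0.363, with a count ratio of 0.778 (0.603 to 1.001). Low counts left wide intervals, such as 0.493 to 1.35 for Cd163 and 0.673 to 1.95 for Fcna. The 9 ratios thus lay above the range in AAV-ctrl and, apart from Spic, inside it in AAV-IL-27, which does not show that they were even there. As these are 2 libraries a group, the difference in spread between the groups was not tested.

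**Figure D2:**
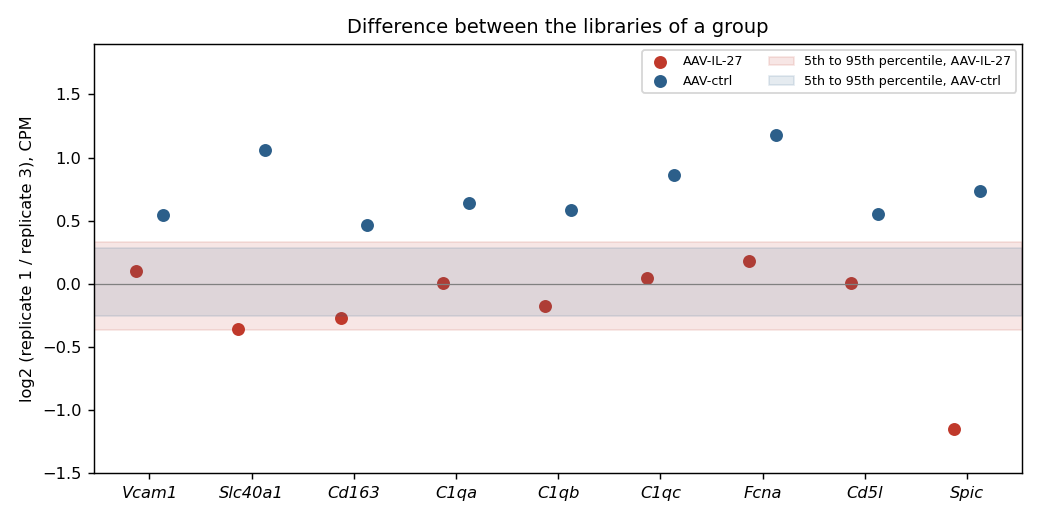
The log2 ratio of replicate 1 over replicate 3 for each of the 9 genes, with AAV-IL-27 left of AAV-ctrl; the shaded bands span the 5th to the 95th percentile of genes of the same level range in each group, and the line marks no difference. All AAV-ctrl points lie above the band, from 0.46 to 1.18, and Spic at -1.15 is the AAV-IL-27 point outside its band.

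Genes with a pattern most like the mean of the 9 were ranked by the root mean square distance of their log2 CPM, centred on each gene's own mean over the 4 libraries. The ranking uses the contrast that the 9 were chosen on. The nearest 4 were Mertk at 0.07, Mrc1 at 0.08, Hmox1 at 0.09 and Hpgd at 0.10. Within the 9, Cd163 lay nearest to their mean at 0.13, and Fcna farthest at 0.52, with Spic at 0.39.

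Of 20 further red pulp macrophage genes, none of them among the 9, 19 were tested. With edgeR's quasi-likelihood test, 8 fell, 2 rose and 9 did not pass, and the median log2 fold change was -0.75. This list, like the others below, was drawn up with earlier results of these data known, and the medians stand beside -0.01 for all genes. The counts that rose or fell, here and in each list below, stand beside 21.3% higher and 17.7% lower among all genes tested. Lists share genes, so their counts are not separate. Of the 8 that fell here, Siglec1 is also in the marginal zone list below. Stab2, which fell too, is also in the endothelial and phagocytic receptor lists. Mrc1, the mannose receptor, stood at 1 and 1.15 FPKM in AAV-IL-27 against 4.84 and 3.26 FPKM in AAV-ctrl, with no overlap. It fell by 1.86 ± 0.21 on the log2 scale (edgeR adjusted p = 0.000734). Mertk, a receptor for dying cells, fell by 1.76 ± 0.27 (edgeR adjusted p = 0.000955), with 36 counts in each AAV-IL-27 library against 153 and 95. Hpgd, a prostaglandin-degrading enzyme, stood at 1.41 and 1.59 FPKM against 5.91 and 4.27 FPKM and fell by 1.71 ± 0.22 (edgeR adjusted p = 0.000375).

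Hmox1, haem oxygenase, was the most abundant of those near the 9 in pattern, at 10.6 and 11.9 FPKM in AAV-IL-27 against 55.3 and 28.1 FPKM in AAV-ctrl. Its groups were 3.58-fold apart but its AAV-ctrl libraries differed, and it did not pass (edgeR adjusted p = 0.104). On all 4 libraries it passed with DESeq2 (adjusted p = 0.000809) and with limma on log2(FPKM + 1) (adjusted p = 0.0382). The edgeR adjusted p with AAV-ctrl replicate 1 or 3 left out was 0.000491 or 4.24e-05, with the difference between the AAV-ctrl libraries no longer in the test. Csf1r, the receptor for the macrophage growth factor, had a log2 fold change of -0.75 ± 0.30 (edgeR adjusted p = 0.165). Its log2 fold change was -1.06 with AAV-IL-27 replicate 3 left out. Where the T cell genes set the scale, Csf1r was at -0.86 and passed (edgeR adjusted p = 4.2e-05). Adgre1, which encodes the F4/80 antigen, fell by 0.98 (edgeR adjusted p = 0.0339), and Axl, a partner of Mertk, by 1.38 (edgeR adjusted p = 0.0332). Neither call was firm. The adjusted p of Adgre1 was 0.162 with AAV-ctrl replicate 1 left out, and that of Axl was 0.163 or 0.112 with AAV-IL-27 replicate 1 or 3 left out. With a replicate block they were 0.109 for Adgre1 and 0.0595 for Axl.

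The genes that rose in that list were Cd300lf and Cd68, both shared with other phagocytes, as are Mertk and Adgre1, which fell. Cd300lf, a lipid-binding receptor, was at 13.8 and 15.4 FPKM in AAV-IL-27 against 10.8 and 10.5 FPKM in AAV-ctrl (edgeR adjusted p = 0.00245). Cd68, a lysosomal protein, was at 41.0 and 33.8 FPKM against 30.6 and 28.4 FPKM (edgeR adjusted p = 0.0137). The Cd68 call ended when AAV-IL-27 replicate 1 (0.0528) or either AAV-ctrl library (0.0639 for replicate 1, 0.125 for replicate 3) was left out, and 1 gene of the list then rose. It also ended where the T cell genes set the scale, at 0.109. All 19 tested genes of the list were higher in AAV-ctrl replicate 1 than in replicate 3, with a median log2 ratio of 0.46, as the 9 were. In AAV-IL-27, 6 of the 19 were higher in replicate 1, with a median of -0.17. Some unlike lists also leaned to AAV-ctrl replicate 1: 12 of 12 B cell genes (median 0.15), 16 of 21 neutrophil genes (0.52) and 11 of 14 erythroid genes (0.40). Of the neutrophil genes, 1 and 3 were at 0 in AAV-ctrl replicates 1 and 3 and others had few counts, so that median rests partly on few reads. Their sums were 61.1 and 49.1 CPM. Other lists did not lean so, with 2 of 13 dendritic cell genes and 4 of 14 T cell genes higher in AAV-ctrl replicate 1.

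Genes of mononuclear phagocytes in general, 31 tested of 32, did not follow the 9 in one direction. By edgeR's quasi-likelihood test 9 rose, 6 fell and 16 did not pass, and the median log2 fold change was 0.15. Among all genes tested 21.3% rose and 17.7% fell. Those that rose included Ctsd, a lysosomal protease, by 0.69 ± 0.05 (adjusted p = 9.76e-06), and Ly6c2, an antigen of monocytes and also of T cells, with a near-identical copy, by 1.19 ± 0.10 (adjusted p = 0.000339). Mertk was among those that fell, as was Apoe, a lipid carrier, at 30.9 and 37.4 FPKM in AAV-IL-27 against 67.1 and 55.9 FPKM in AAV-ctrl (edgeR adjusted p = 0.00361). Timd4, a receptor for dying cells on resident macrophages, had 11 and 8 counts against 38 and 26 (edgeR adjusted p = 0.00735). It did not pass with DESeq2 on all libraries (adjusted p = 0.0503). Its log2 fold change was -1.43 without AAV-ctrl replicate 1. The most abundant that did not pass were Ctss, at 0.15 (edgeR adjusted p = 0.071), and Cybb, at 0.20 (edgeR adjusted p = 0.134), and both passed with AAV-IL-27 replicate 1 left out (0.00791 and 0.000862). Tyrobp, an adaptor of myeloid receptors, stood at 88.2 and 81.5 FPKM against 92.1 and 87.6 FPKM. Leaving out AAV-ctrl replicate 1 gave 4 that rose and 3 that fell, and leaving out AAV-ctrl replicate 3 gave 5 that rose.

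Marginal zone macrophages, which border the white pulp, are a neighbouring population. Of their 9 listed genes 8 were in the table and 6 were tested. By edgeR's quasi-likelihood test 5 fell and 0 rose, and the median log2 fold change was -1.43. Marco, a scavenger receptor that defines them, had 6 and 7 counts in AAV-IL-27 against 63 and 25 for AAV-ctrl (edgeR adjusted p = 0.00591, and 0.0574 without AAV-ctrl replicate 1). Cd209d, a lectin with near-identical relatives that can share reads, stood at 4.45 and 4.20 FPKM against 11.1 and 12.6 FPKM (edgeR adjusted p = 0.000237). Its relative Cd209a, in the dendritic cell list, fell by 1.33 (edgeR adjusted p = 4.54e-05). Between the AAV-ctrl libraries the log2 ratio of replicate 1 over 3 was 1.26 for Marco but -0.20 for Cd209d, with 3 of the 6 higher in replicate 1. Nr1h3, the LXR-alpha factor that marginal zone macrophages need, fell by 0.97 (edgeR adjusted p = 0.0144). The call was not firm, as Nr1h3 did not pass with DESeq2 on all libraries (adjusted p = 0.0929). Its log2 fold change was -0.82 with AAV-IL-27 replicate 3 left out. Without AAV-ctrl replicate 1 or 3 it was -0.82 or -1.1. Msr1 was level between the groups, at 0.02 (edgeR adjusted p = 0.979). Leaving out AAV-IL-27 replicate 1 gave 3 that fell, and leaving out an AAV-ctrl library gave 1 (replicate 1) or 3 (replicate 3). Cd209b, the SIGN-R1 lectin, had 0 counts in both AAV-IL-27 libraries against 8 and 7 in AAV-ctrl and was too low to test. Siglec1, among the 5 that fell, with 6 and 15 counts against 51 and 26, is counted in the further red pulp list as well.

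**Figure D3:**
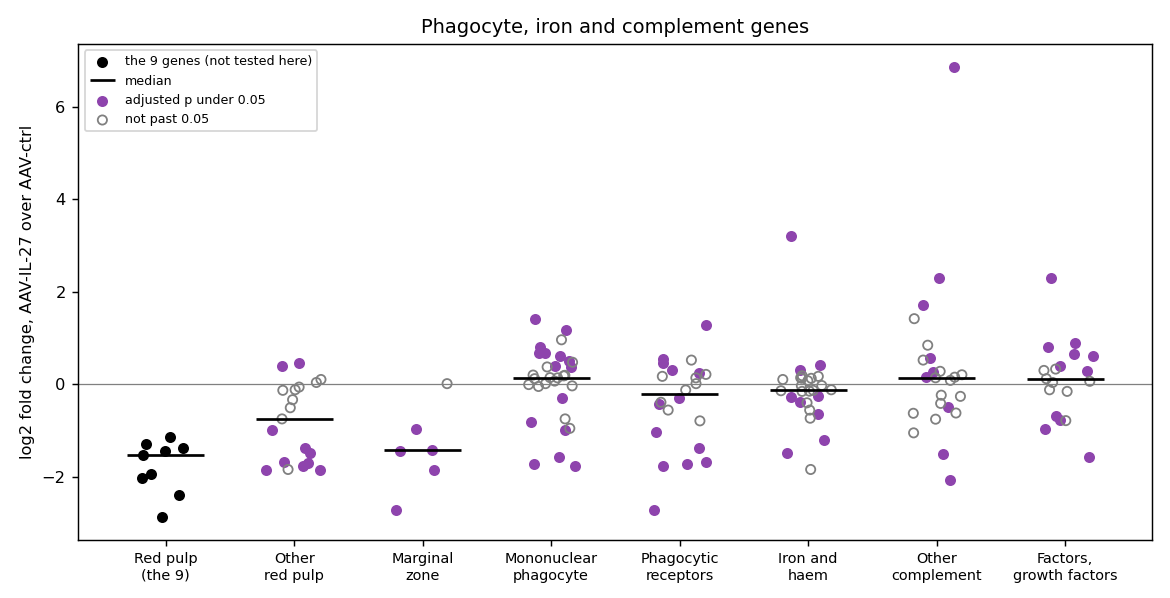
Log2 fold change, AAV-IL-27 over AAV-ctrl, of each tested gene in 8 lists; filled purple points passed an adjusted p of 0.05 in edgeR's test, open points did not, the 9 genes are black without a test, and bars are medians. The 9 lie between -2.87 and -1.14, while the mononuclear phagocyte genes lie on both sides of 0 around a median of 0.15.

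Among 33 genes of iron and haem handling, the setting of Slc40a1 and Cd163, 27 were tested. There, 3 rose by edgeR's quasi-likelihood test, 6 fell and 18 did not pass, and the median log2 fold change was -0.13. Hp, haptoglobin, which binds haemoglobin, stood at 6.20 and 10.1 FPKM in AAV-IL-27 against 1 and 0.81 FPKM in AAV-ctrl (edgeR adjusted p = 0.000103). Hp is also made by neutrophils, and the summed neutrophil genes, at 1004 and 1659 CPM against 61.1 and 49.1 CPM, were higher in the same libraries and highest, like Hp, in AAV-IL-27 replicate 3. Their part in the Hp values was not tested. Slc25a37, the mitochondrial iron importer, fell by 0.64 (edgeR adjusted p = 0.000116), and Trf, transferrin, by 1.47 (edgeR adjusted p = 0.0217, and 0.0809 without the filter on low counts). Of the chains of ferritin, the iron store, Fth1 stood at 470 and 437 FPKM against 570 and 558 FPKM (edgeR adjusted p = 0.00317, and 0.0574 without AAV-ctrl replicate 1), and Ftl1 at 524 and 516 FPKM against 523 and 460 FPKM (edgeR adjusted p = 0.126). The iron chaperone Pcbp2 was at -0.03. Leaving out replicate 3 of either group gave 1 that rose, and leaving out AAV-ctrl replicate 1 gave 3 that fell.

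Of 38 other complement genes, 33 were in the table and 24 were tested. With edgeR's quasi-likelihood test 6 rose, 3 fell and 15 did not pass. Fcnb, ficolin-B of neutrophils and monocytes and the relative of Fcna, had 107 and 154 counts in AAV-IL-27 against 2 and 0 for AAV-ctrl (edgeR adjusted p = 1.86e-05), so the ficolin genes differed in opposite directions. C3, on which the pathways converge, stood at 5.90 and 8.34 FPKM against 1.43 and 1.9 FPKM (edgeR adjusted p = 0.00933, and 0.0527 without AAV-ctrl replicate 1). Calr, calreticulin, a binding partner of C1q, rose by 0.56 (edgeR adjusted p = 0.000129). C6, of the terminal pathway, fell by 2.06 (edgeR adjusted p = 0.000639), with 21 and 16 counts against 92 and 65. The complement receptor genes Cr2 and Itgax did not pass (edgeR adjusted p = 0.189 and 0.0963). Both passed where the T cell genes set the scale, Cr2 at -0.52 and Itgax at 0.39 (edgeR adjusted p = 4.36e-05 and 0.00404). The adjusted p with an AAV-IL-27 library left out was 2.08e-05 to 0.0134, with the spread between the AAV-IL-27 libraries no longer in the test. The counts moved with a library left out, to 3 that rose and 1 that fell for AAV-ctrl replicate 3, and to 5 that fell for AAV-IL-27 replicate 3.

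Of 26 receptors and bridges for dying cells 22 were tested, and with edgeR's quasi-likelihood test 5 rose, 8 fell and 9 did not pass. Mertk, Axl, Timd4 and Marco, given above, were among those that fell. Itgb3, an integrin chain, rose by 0.54 (edgeR adjusted p = 0.000815), while Cd36 and Itgav did not pass, with log2 fold changes of 0.14 and 0.17. Leaving out AAV-IL-27 replicate 3 brought Itgav past the threshold (edgeR adjusted p = 0.0269). Leaving out AAV-IL-27 replicate 1 gave 4 that fell, leaving out AAV-ctrl replicate 1 gave 2, and leaving out AAV-ctrl replicate 3 gave 3 that rose.

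VCAM1 binds integrins on leukocytes, and of 10 such partners and related adhesion genes 9 were tested. Of these, 5 rose and 2 fell by edgeR's quasi-likelihood test. Itga4 and Itgb1, which form VLA-4, were abundant and higher in AAV-IL-27, at 123 and 118 FPKM against 102 and 103 FPKM for Itga4 (edgeR adjusted p = 0.00112) and at 63.3 and 63.3 FPKM against 45.6 and 44.8 FPKM for Itgb1 (edgeR adjusted p = 2.7e-05). The Itga4 call did not hold where the T cell genes set the scale (0.296). Itga9, another VCAM1 partner, had 41 and 30 counts against 119 and 88 and fell by 1.52 (edgeR adjusted p = 0.0013). Icam1, a ligand of leukocyte integrins, and Itgb2, a chain of those integrins, rose by 0.64 and 0.51 (edgeR adjusted p = 2.76e-05 and 0.000317). Msn and Itgad did not pass, at -0.03 and -0.51. With no library left out, Itgad passed where the T cell genes set the scale (edgeR adjusted p = 0.000481). It also passed with a replicate block (edgeR adjusted p = 0.00729). With AAV-IL-27 replicate 1 left out Itgad was at -0.85. With either AAV-ctrl library left out, 1 gene of this list fell.

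Among 20 transcription factors and growth factors of macrophages, the setting of Spic, 19 were tested. With edgeR's quasi-likelihood test 7 rose, 4 fell and 8 did not pass. Spi1, which encodes PU.1, stood at 39.2 and 36.9 FPKM in AAV-IL-27 against 35.7 and 36.4 FPKM in AAV-ctrl (edgeR adjusted p = 0.175). Its relative Spib, also used by B cells, stood at 47.8 and 66.0 FPKM against 106 and 95.5 FPKM (edgeR adjusted p = 0.0611). On all 4 libraries Spib passed with DESeq2 (adjusted p = 0.0067) and with limma on log2(FPKM + 1) (adjusted p = 0.0207). It also passed where the T cell genes set the scale (edgeR adjusted p = 1.75e-12). With AAV-IL-27 replicate 1 or 3 left out, and so without the spread within that group, the edgeR adjusted p was 0.000449 or 2.1e-05. Maf, a factor that T cells also use, rose by 2.30 ± 0.14 (edgeR adjusted p = 3.93e-06). Csf1, the growth factor that macrophages need, rose by 0.91 (edgeR adjusted p = 0.000479), and Csf2rb, a cytokine receptor chain, by 0.61 (edgeR adjusted p = 0.0001). Nfe2l2 did not pass, at -0.15.

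Markers of other cells moved between the groups as well, and their part in the values of the 9 genes was not tested. List sums are in CPM scaled by edgeR's TMM factors as well as by the library total. The summed level of 21 neutrophil genes was 1004 and 1659 CPM in AAV-IL-27 against 61.1 and 49.1 CPM in AAV-ctrl; 19 of the 21 rose by edgeR's quasi-likelihood test, 11 when AAV-ctrl replicate 1 was left out and 8 when it was replicate 3. Ly6g, a defining marker, had 38 and 62 counts against 0 and 1. The 12 B cell genes summed to 2575 and 3532 CPM against 4934 and 4427 CPM, with 5 that fell, including Blk, Fcrla and Ebf1. With an AAV-IL-27 library left out, 10 (replicate 1) or 12 (replicate 3) fell. With a replicate block, 3 fell.

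The other sums overlapped or differed less. Dendritic cell genes (13) summed to 1054 and 876 CPM in AAV-IL-27 against 882 and 917 CPM in AAV-ctrl, with 2 that rose and 2 that fell by edgeR's test, and 5 and 6 that rose without AAV-IL-27 replicates 1 and 3. Erythroid genes (23 in the table) summed to 60.1 and 76.7 CPM against 86.6 and 58.5 CPM, with Gata1 and Hemgn that rose of 14 tested. The Hemgn call ended with any library left out (edgeR adjusted p = 0.0949 to 0.25). Leaving out replicate 1 of either group gave 1 that rose, and leaving out replicate 3 gave 2 (AAV-IL-27) or 1 (AAV-ctrl) that fell. Endothelial and stromal genes (21), another possible source of Vcam1, summed to 168 and 180 CPM against 235 and 239 CPM, with 9 tested. Most of that sum was Pecam1, which leukocytes also make, at 141 and 152 CPM against 213 and 213 CPM. The other 20 genes summed to 26.3 and 27.7 CPM in AAV-IL-27 against 22.02 and 26.1 CPM in AAV-ctrl. Of the 9 tested 2 rose and 2 fell, and 4 of the 21 were at 0 in each library. Leaving out replicate 1 of either group gave 1 that rose, and for AAV-IL-27 also 1 that fell. Madcam1 had 0 and 0 counts against 0 and 1, and Cxcl12 0 and 0 against 3 and 2.

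The 14 T cell genes summed to 6525 and 5767 CPM in AAV-IL-27 against 5560 and 5675 CPM in AAV-ctrl. By edgeR's test 8 rose and 2 fell, with 3 and 4 that rose and 0 that fell without AAV-ctrl replicates 1 and 3. The 9 red pulp genes, on the same TMM scale, summed to 51.6 and 55.9 CPM against 247 and 148 CPM. The sums of the 9 given earlier were scaled to the library total alone. The further red pulp genes summed to 246 and 253 CPM against 452 and 321 CPM, and the mononuclear phagocyte genes to 3851 and 3661 CPM against 2715 and 2623 CPM. Without Ly6c2, which was at 810 and 666 CPM against 334 and 315 CPM, the 31 other phagocyte genes summed to 3041 and 2996 CPM against 2381 and 2308 CPM. Summed expression of red pulp genes was thus lower, and of mononuclear phagocyte genes higher, in both AAV-IL-27 libraries. Abundant genes weigh most in such a sum: Mpeg1, still in it, had 13506 and 10625 counts against 7416 and 7804. The median log2 fold change of the phagocyte list was only 0.15. Csf1r, Adgre1, Cd68 and Mertk are in both the phagocyte list and the further red pulp list. The part of other cells in the phagocyte sum was not tested. Marginal zone genes, at 8.35 and 8.93 CPM against 23.8 and 21.1 CPM, were the marker list with the lowest sum.

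**Figure D4:**
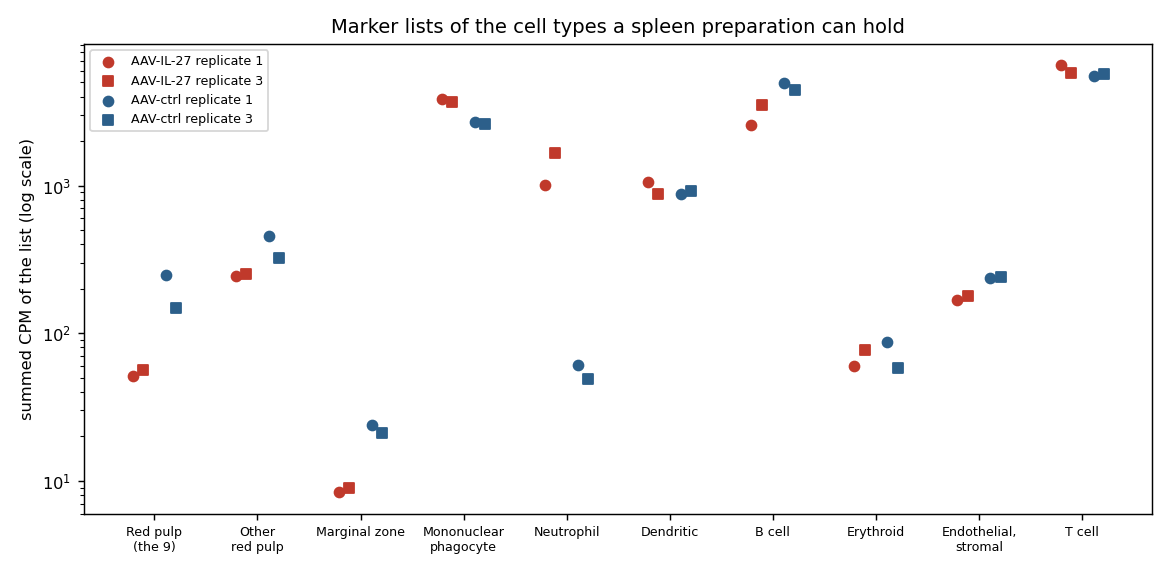
Summed CPM, scaled with TMM factors and on a log axis, of each marker list in the 4 libraries, with AAV-IL-27 left of AAV-ctrl. Circles are replicate 1 and squares replicate 3. The 9 genes stand at 51.6 and 55.9 CPM in AAV-IL-27 against 247 and 148 CPM in AAV-ctrl, while neutrophil genes stand at 1004 and 1659 CPM against 61.1 and 49.1 CPM.

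Every gene of the 9 had a log2 fold change below 0 under each other scaling, filter and tool tried, and with any library left out. The 9 were chosen on this contrast and their groups did not overlap, so a change of sign was hardly possible. Nothing is read from the signs. Where the 14 T cell genes set the scale, the median of all genes moved to -0.13, and the median of the 9 to -1.66. The median of the 9 lay between -1.99 without AAV-IL-27 replicate 3 and -1.14 without AAV-ctrl replicate 1.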

How the data were processed

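For each gene and library the authors deposited an expected count, which need not be whole (64.9% to 65.05% of a library's values are), and a further value per gene and library that was taken as FPKM. The deposited header does not name the FPKM unit, which was inferred from the values; 4 columns of group means were not used. Build GRCm38.p6, RSEM 1.2.12, HISAT2 2.0.4, DESeq2 1.4.5 and Bowtie2 2.2.5 are named, without roles, per the submitters' processing notes. Strand use in counting: not given in the sources used here. Per the labels, the molecule is poly(A) RNA but the library protocol removes ribosomal RNA, so which applied is unclear.

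Here, expected counts were rounded, filtered with filterByExpr (12887 of 17039 genes kept), scaled with TMM and tested with edgeR 4.0.16 (robust quasi-likelihood fit, no block, two-sided, Benjamini-Hochberg over all genes tested, threshold 0.05) in R 4.3.3, after a test on simulated counts. The SE is the log2 fold change divided by the square root of the F value. DESeq2 1.42.0, limma 3.58.1 on log2(FPKM + 1) and log2(FPKM + 0.1), other scalings, no filter, a replicate block and leaving out each library were alternatives. Members and lists were chosen with earlier results of these data known. Named were the 9 genes, up to 3 genes of each list with the smallest p past the threshold, up to 2 with the highest level not past it, and 5 by likeness, of which 1 is not reported here. Adgre1, Axl, Cd68, Trf, Timd4, Apoe, Tyrobp, C3, Itga4, Itga9, Spi1, Cd209b, Madcam1, Cxcl12, Siglec1, Stab2 and the label checks were named after their values were seen. The list sums without Pecam1 or Ly6c2 were added then. Coordinates and promoters are from RefSeq tables of GRCm38.p6, and 16921 of the 17039 genes matched by gene number. Intervals are exact binomial at 95%.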

Additional observations from a re-analysis of the deposited data

How the results depend on the processing

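The log2 fold change of each of the 9 genes stayed below 0 under every alternative run. As their groups did not overlap, a change of sign was hardly possible, and nothing is read from the signs. Cd163, Fcna, Spic and Cd5l had 29 to 76 counts in the AAV-IL-27 libraries, while the largest SE of the 9, 0.594, was that of Slc40a1, with 113 counts or more in every library. Between 4 and 8 of the 9 genes passed the threshold with 1 library left out. With DESeq2, 3243 genes changed and 1239 of them were lower. With 1 library left out, 2635 to 4886 changed, 1646 to 2632 higher and 989 to 2254 lower. The split between higher and lower genes, 2745 and 2278 with TMM, was 2362 and 2979 with upper-quartile factors, 2363 and 2975 by library size alone, and 1516 and 2704 where the T cell genes set the scale. The cause of these shifts was not tested.

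Scaled to the T cell genes, 1 gene of the further red pulp list rose, 1 of iron and haem rose, 6 of complement fell and 3 phagocytic receptors rose. With DESeq2, 3 marginal zone genes and 5 phagocytic receptors fell. In the iron and haem list 1 gene rose with upper-quartile factors, with library size alone, with DESeq2, with limma on log2(FPKM + 1) and with limma on log2(FPKM + 0.1). With 1 library left out, the further red pulp genes that rose numbered 1 to 2, mononuclear phagocyte genes 4 to 12 (and 3 to 9 that fell), iron and haem genes 1 to 4 (3 to 8 fell), complement genes 3 to 8 (1 to 5 fell) and phagocytic receptors 3 to 6 (2 to 9 fell), while 1 to 4 marginal zone genes fell.

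Some log2 fold changes near 0 changed sign. Msr1 was at -0.0341 with upper-quartile factors, -0.0337 by library size alone and -0.109 on the T cell scale. Cd2 was at -0.0193 with upper-quartile factors, -0.0187 by library size alone, -0.0943 on the T cell scale, -0.0189 with limma on log2(FPKM + 1) and -0.0189 with limma on log2(FPKM + 0.1). On the T cell scale Acta2 was at -0.0706 and Spi1 at -0.0045. With 1 library left out, Msr1 ranged over -0.286 to 0.395, Pcbp2 over -0.0774 to 0.0153, Hbb-bs over -0.935 to 0.072, Hba-a1 over -0.5998 to 0.149, Col1a1 over -0.986 to 0.328, Acta2 over -0.38 to 0.591, Cd8b1 over -0.11 to 0.0825 and Tyrobp over -0.0883 to 0.0222.

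Libraries of the same number did not deviate together: over genes, the correlation of the differences between replicates 1 and 3 in the 2 groups was -0.000711, with 2 pairs. The labels name no pairing, so the numbers were not taken to pair the libraries. With a replicate block, 4971 genes changed against 5023 without it, and 7 of the 9 genes passed either way. The calls of Adgre1 and Axl ended with it, and those of Itgad and Retnlg were gained, of the genes named here.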
